A study of Mus musculus with 2 samples.

Results

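The genes described here are those of glycolysis and of the fate of its product pyruvate: glucose and lactate transporters, the glycolytic enzymes and their isozymes, lactate dehydrogenase, pyruvate dehydrogenase with its kinases, and the enzymes of the bisphosphate regulators. They were taken from a list of 32 genes by their symbol in the platform annotation. Of the 32, 29 had at least 1 probe set annotated to that gene alone, out of 18193 genes represented on the arrays, and these 29 had 65 probe sets in all. Gpi1 and Eno1 had no probe set annotated to them alone and are not analysed here. The 3 probe sets annotated to Gapdh were shared with other genes, so Gapdh was not analysed either. Of the 29 genes, 26 had a signal above the floor on both arrays. Each array's floor was its median over all probe sets, 68.8 on the DKO-titled and 71.8 on the TKO-titled array, and a signal below it was not counted as measured. Slc16a3, Eno2 and Pdk2 lay below it on both arrays and have no ratio.

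Thymocytes of C57BL/6J mice had been depleted of lineage-marker-positive cells with Dynabeads, and the remaining cells, double-negative (DN) thymocytes by the series title, were profiled on 2 one-colour Affymetrix arrays, 1 titled DKO and 1 titled TKO. By the design text all cells carried Cdkn2a-/-, Ring1A-/- and floxed Ring1B (fl/fl), with LckCre absent in DKO and present in TKO; LckCre is a recombinase under the T-lineage promoter of Lck. The samples' genotype field instead gives loss of Ring1A and Ring1B for DKO, with loss of Cdkn2a in addition for TKO. The growth field mentions culture in standard medium without a duration, and neither age, sex nor the number of animals is given in the sources used here. Cdkn2a had a signal of 679 on the DKO-titled array against 18.5, under the floor, on the other, which goes against the design text. Ring1 (133 and 147) and Rnf2, the gene of Ring1B (4149 and 4384), were above the floor on both arrays, although either text gives loss of Ring1A in both genotypes and of Ring1B at least in TKO. Whether these probe sets lie in the deleted segments is not given, so the arrays are called throughout by their titles. With 1 array per label there is no spread between animals, no test was possible, and every difference is a difference between these 2 arrays. A fixed size of 2-fold stands in for a test, and log2 ratios are given as TKO minus DKO.

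The arrays also differed in ways that coincide with the labels. Xist had signals of 124 and 16502 on the DKO-titled and TKO-titled arrays, and the Y-linked Eif2s3y had 1711 and 55.3, Kdm5d 652 and 30.4, and Uty 345 and 14.7, so that sex cannot be told apart from the label. Of 17 measured B lineage markers 15 passed 2-fold, all of them higher on the TKO-titled array, with a median log2 ratio of 1.58 and summed signals of 29233 and 67474. Of 19 T lineage and DN thymocyte markers, 17 had negative ratios, with a median of -0.29 and summed signals of 144076 and 103962. Cd4, absent from DN cells, was below the floor on both arrays, while Cd8a (616 and 635) and Cd8b1 (975 and 1080) were above it. In such bulk samples fewer cells of a type and less RNA per cell cannot be told apart, and the part of cell makeup or sex in the values below was not tested.

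Glycolysis splits glucose into pyruvate in the cytosol. A preparatory phase spends ATP to phosphorylate the sugar, and a pay-off phase returns ATP and NADH. Pyruvate is then reduced to lactate by lactate dehydrogenase and exported, or enters the mitochondrion and is oxidised to acetyl-CoA by the pyruvate dehydrogenase complex, which pyruvate dehydrogenase kinases switch off by phosphorylation. Dividing thymocytes at the stage of pre-T-cell receptor selection are known for a high glycolytic flux under Notch, interleukin-7 and PI3K signals, and several of the steps are run by isozymes that differ between tissues. HIF-1, which binds the cores ACGTG and GCGTG, and Myc, which binds the E-box CACGTG, are known activators of many of these genes.

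The promoters of the lactate dehydrogenase genes Ldha and Ldhb, whose ratios were among the lowest 3 of the group, and of Slc2a1 and Pfkfb3, whose ratios were the highest 2, are shown as the 250 bases before the most upstream start listed by RefSeq on GRCm38.p6. They are given 5′ to 3′ on the gene's strand, and capitals mark ACGTG or GCGTG on either strand, with CACGTG where both strands match:
Ldha, chr7:46845554-46845803, plus strand: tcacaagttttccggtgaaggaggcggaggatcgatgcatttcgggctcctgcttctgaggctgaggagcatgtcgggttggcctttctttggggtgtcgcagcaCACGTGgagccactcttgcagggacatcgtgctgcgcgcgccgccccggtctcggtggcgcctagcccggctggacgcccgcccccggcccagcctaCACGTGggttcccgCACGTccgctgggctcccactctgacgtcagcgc
Ldhb, chr6:142507958-142508207, minus strand: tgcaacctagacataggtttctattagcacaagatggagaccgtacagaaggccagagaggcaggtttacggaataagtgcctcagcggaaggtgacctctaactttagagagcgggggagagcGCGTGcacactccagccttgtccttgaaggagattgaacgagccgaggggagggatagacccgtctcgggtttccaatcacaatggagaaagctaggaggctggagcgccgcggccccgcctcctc
Slc2a1, chr4:119108495-119108744, plus strand: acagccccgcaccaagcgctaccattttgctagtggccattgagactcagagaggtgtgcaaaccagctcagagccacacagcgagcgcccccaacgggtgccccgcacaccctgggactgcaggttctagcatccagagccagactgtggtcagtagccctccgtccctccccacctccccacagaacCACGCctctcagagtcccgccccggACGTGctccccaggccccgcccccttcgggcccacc
Pfkfb3, chr2:11553930-11554179, minus strand: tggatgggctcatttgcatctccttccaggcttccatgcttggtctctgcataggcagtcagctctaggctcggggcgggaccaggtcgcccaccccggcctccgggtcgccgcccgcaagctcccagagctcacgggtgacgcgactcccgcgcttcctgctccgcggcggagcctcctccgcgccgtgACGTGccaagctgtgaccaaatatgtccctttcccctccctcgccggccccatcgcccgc

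The Ldha window held CACGTG at 2 places and a further ACGTG on the opposite strand, whereas the Ldhb window held GCGTG at 1 place and no CACGTG. Slc2a1 had 1 ACGTG and 1 GCGTG, and Pfkfb3 had 1 ACGTG. RefSeq promoters were listed for 31 of the 32 genes, all but Slc2a3. Of these 31, 26 (83.9%) had ACGTG or GCGTG on either strand in at least 1 of their 250-base windows, against 41.5% of the 27025 genes with a listed promoter. CACGTG, which contains ACGTG on both strands, was found in 6 of the 31 (19.4%), against 6.9% of all genes. Counted by window, 76.6% of the group's 47 windows held ACGTG or GCGTG, against 38.6% of all 32851. For CACGTG the shares of windows were 12.8% and 6.0%. Base composition and the number of windows per gene were not matched between the groups. A match is a run of letters, not a shown binding site. The genes shown from both ends of the range of ratios each carried a core match in the 1 window printed. The 83.9% of the group counts any listed window of a gene. In the most upstream window alone Hk1, Gpi1, Aldoa, Tpi1, Eno2, Pkm, Dlat and Bpgm had no core match. Whether the core relates to the ratios was not tested.

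None of the 26 measured genes differed by 2-fold between the arrays. Across all 11280 genes with a ratio, 3.58% were higher by 2-fold or more and 0.532% lower by as much on the TKO-titled array. In the brightest quartile, 37 of 2820 genes were higher and 4 lower by 2-fold, a lower rate. A group of this size would hold few such genes at either rate. At the smaller size of 1.5-fold the group again had 0 genes in either direction, where 8.66% of all genes were higher and 3.27% lower. That 0 rests on the setting, since Pfkm lay at the limit and passed it after quantile normalization (-0.63). Log2 ratios ran from -0.58 for Pfkm to 0.38 for Pfkfb3. The median was -0.11, beside -0.03 for all genes and -0.08 for the brightest quartile of genes. Of the 26 ratios 18 (69.2%) were negative, beside 53.5% of all genes and 64.9% of the brightest quartile. The group was thus close to the brightest quartile in its median and in its share of negative ratios. It also held dim genes, such as Aldoc, Pfkfb2 and Pfkfb4, and its genes within that quartile were not counted.

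The only gauge of error within these arrays is the disagreement between probe sets of 1 gene, whose robust SD was 0.22 on the log2 scale over 4794 genes. It holds no error between animals, RNA preparations or hybridisations. Of the 26 ratios 18 (69.2%) lay within 1 such SD of 0, beside 53.5% of all genes with a ratio, dim genes included. Of the other 8, 6 were negative and 2 positive. Of the 49 probe sets of the group above the floor on both arrays, 34 had negative and 15 positive ratios, between -0.67 and 0.40. Among the 12 genes with several such probe sets, all probe sets of a gene were negative in 4 genes, all positive in 2, and of both signs in 6.

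**Figure D1:**
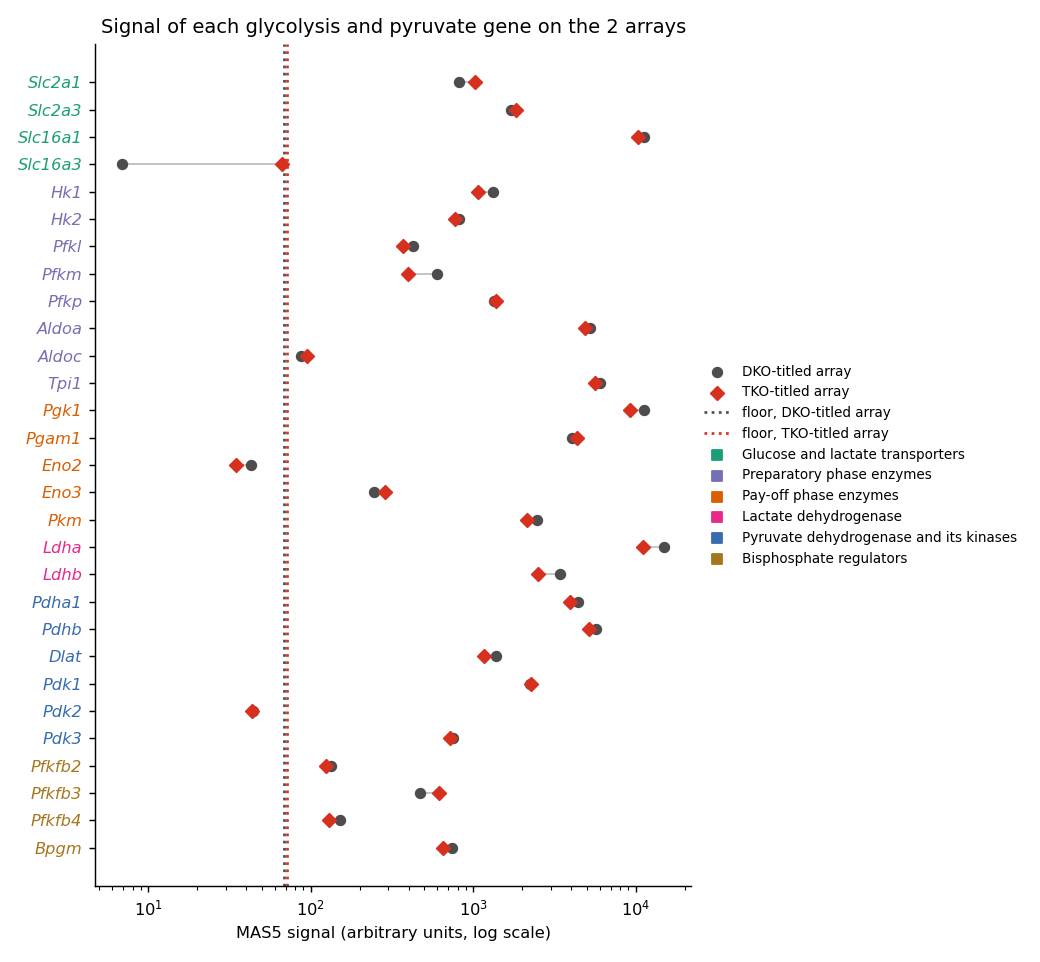
MAS5 signal (x axis, arbitrary units, log scale) of the brightest probe set of each of 29 genes on the DKO-titled array (grey circles) and the TKO-titled array (red diamonds), with gene names coloured by role and each array's floor dotted. The 2 symbols nearly coincide for most genes. Ldha, Ldhb, Pfkm, Hk1, Slc2a1 and Pfkfb3 are among those set apart a little. Slc16a3, Eno2 and Pdk2 lie below both floors, and Slc16a3 (6.90 and 66.1) has the widest gap.

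Of the glucose transporters, both listed genes were measured and neither differed by 2-fold. Slc2a1 (GLUT1), the main glucose importer of activated lymphocytes, had signals of 822 on the DKO-titled and 1021 on the TKO-titled array, a log2 ratio of 0.31. Its other probe sets disagreed in direction, with 660 and 527 (-0.32) for one and 211 and 251 (0.26) for the other. Slc2a3 (GLUT3), a transporter of high affinity, had 1712 and 1841 (0.10), and its second measured probe set had 630 and 641 (0.03). The direction for Slc2a1 therefore rests on which probe set is read, and as the mean over all 3 its log2 ratio was 0.08.

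The lactate and pyruvate carriers are encoded by Slc16a1 (MCT1) and Slc16a3 (MCT4). Slc16a1 had signals of 11293 and 10363, a log2 ratio of -0.12. Slc16a3, the carrier typical of strongly glycolytic cells, was below the floor on both arrays, with 6.90 and 66.1. The TKO-titled value of Slc16a3 lay just under its floor of 71.8, and with the floor lowered to the 25th percentile of each array it was the 1 gene of the group counted as at least 2-fold higher. Of this pair of carriers, then, Slc16a1 alone was above the floor, and it was so on both arrays.

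The preparatory phase begins with hexokinase, which traps glucose as glucose-6-phosphate. Hk1, the widely expressed isozyme, had signals of 1331 and 1068 (log2 ratio -0.32), and its dim second probe set (92.3, and 66.4 below the floor) also had a higher signal on the DKO-titled array. Hk2, the inducible isozyme, had 822 and 774 (-0.09). The difference between the 2 ratios was 0.23, less than the 0.31 that 1 SD between probe sets gives for a difference of 2 ratios.

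Phosphofructokinase commits the sugar to glycolysis and occurs as liver (Pfkl), muscle (Pfkm) and platelet (Pfkp) subunits, all 3 of which were measured on both arrays. Pfkm, read by 1 probe set, had signals of 596 and 398, the lowest ratio of the group at -0.58, and 3.02% of the 10316 genes measured on both arrays had this ratio or a lower one. Pfkl had 425 and 369 (-0.21), with -0.10 for its second probe set. Pfkp had 1349 and 1375 (0.03), and its dim second probe set had 103 and 136 (0.40). The subunits thus differed in their ratios, Pfkm standing 0.61 below Pfkp and 0.38 below Pfkl, and Pfkl 0.23 below Pfkp. Of these 3 differences, those that involve Pfkm were larger than the probe set SD of 0.31 for every choice of Pfkl and Pfkp probe sets. Pfkm itself offered no choice. The 0.31 comes from the robust SD of 0.22 for 1 ratio, and the ordinary SD of 0.27 would set a higher limit.

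Aldolase and triose phosphate isomerase complete the preparatory phase. The 5 probe sets of Aldoa, the isozyme of muscle and most proliferating cells, ranged in log2 ratio from -0.26 to 0.05, the brightest having signals of 5196 and 4858 (-0.10). Aldoc, the brain isozyme, was barely above the floor, with 86.8 and 95.1 (0.13). Tpi1 had 5990 and 5637 (-0.09), and its 3 probe sets ranged from -0.14 to 0.10. The probe sets of Aldoa and Tpi1 that end in _x_at can also bind similar sequences, such as pseudogenes of these genes. The sign of these small ratios differed between probe sets of the same gene.

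In the pay-off phase, phosphoglycerate kinase and pyruvate kinase make the ATP. Pgk1, which lies on the X chromosome, had signals of 11185 and 9180 (log2 ratio -0.29), its second probe set had 10488 and 8550 (-0.29), and the last had 6644 and 7039 (0.08). Pkm, the pyruvate kinase of lymphocytes, had 2460 and 2130 (-0.21) on its single probe set, which does not tell the M1 and M2 splice forms apart here. Pgam1, phosphoglycerate mutase, had 4037 and 4373 (0.12). Of the enolases, Eno3, the muscle form, had 246 and 285 (0.21), and Eno2, the neuronal form, was below the floor with 42.6 and 34.7. The 4 measured genes of this phase were evenly split in sign.

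Lactate dehydrogenase had the lowest median log2 ratio of the 6 roles, -0.44, with both genes negative, although the single lowest ratio was that of Pfkm. Ldha encodes the M subunit that favours lactate formation, and Ldhb the H subunit that favours its oxidation. Ldha had signals of 15010 on the DKO-titled array and 11160 on the TKO-titled array, a log2 ratio of -0.43 (1.34-fold lower), and 7.08% of genes measured on both arrays had this ratio or a lower one. Ldhb had 3433 and 2512 on its brightest probe set, a log2 ratio of -0.45 (1.37-fold lower), with 6.13% of genes at or below it. Its other 3 probe sets had 3676 and 2305 (-0.67), 3273 and 2287 (-0.52), and 2921 and 1936 (-0.59). All 5 probe sets of the 2 genes thus had the higher signal on the DKO-titled array, whereas each other role of the pathway held probe sets of both signs. This is the smallest role, however, and 4 of the 5 probe sets read the same gene, Ldhb. Negative ratios were also common outside the pathway, as in 18 of 19 proliferation genes. The ratios of the 2 isozymes differed by 0.02 on the brightest probe sets and by at most 0.25 over all choices, so a shift between them was not seen beyond the probe set SD. Over the 9 alternative settings Ldha stayed between -0.43 and -0.29 and Ldhb between -0.56 and -0.40.

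**Figure D2:**
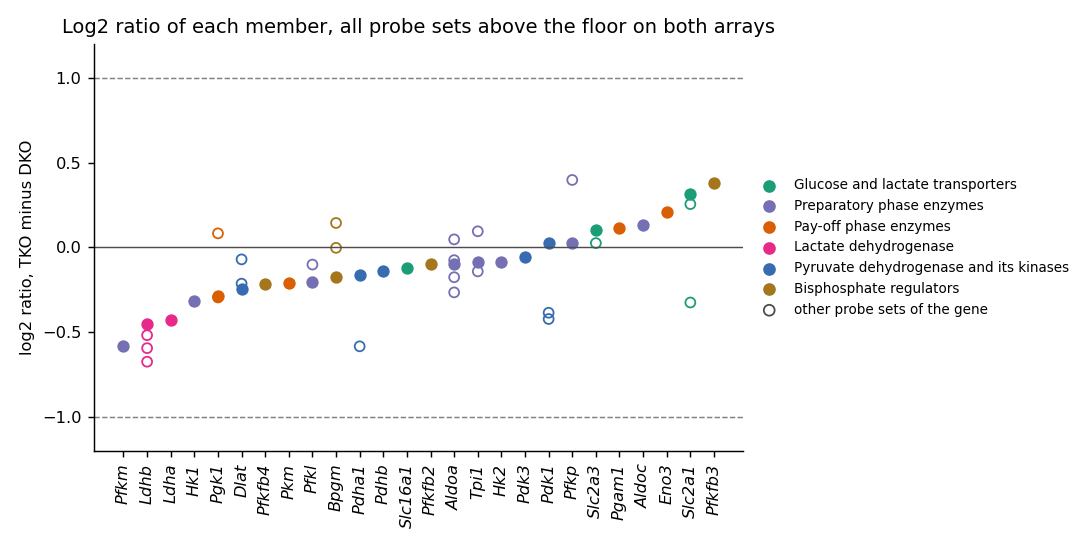
Log2 ratio (TKO minus DKO, y axis) of the 26 genes measured on both arrays, ordered by ratio and coloured by role, with the brightest probe set filled and other probe sets open; dashed lines mark 2-fold. No probe set reaches a dashed line, and the 4 probe sets of Ldhb lie between -0.67 and -0.45 while those of Slc2a1, Pdk1, Pgk1, Tpi1, Aldoa and Bpgm lie on both sides of 0.

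The pyruvate dehydrogenase complex links glycolysis to the mitochondrion, and its 3 measured subunit genes had negative ratios. Pdha1, the X-linked catalytic alpha subunit, had signals of 4414 and 3940 (log2 ratio -0.16) and 996 and 665 (-0.58) on its probe sets. Pdhb, the beta subunit, had 5681 and 5160 (-0.14). Dlat, the acetyltransferase core, had 1386 and 1172 (-0.24), with -0.21 and -0.07 for its other probe sets. A dim second Pdhb probe set was at 67.9, just below the floor, and 88.7. None of these reached 1.5-fold on either side.

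Of the kinases that inhibit the complex, Pdk1 and Pdk3 were measured and Pdk2 was below the floor at 44.0 and 43.6. Pdk1, a known HIF-1 target, had 2224 and 2262 on its brightest probe set, a log2 ratio of 0.02. Its other probe sets had 1116 and 855 (-0.38), 796 and 594 (-0.42), and 114 and 58.5, the last below the floor. Pdk3, which is X-linked, had 746 and 716 (-0.06). For Pdk1 3 of 4 probe sets therefore had the higher signal on the DKO-titled array, and its log2 ratio as the mean over all 4 was -0.36.

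The bisphosphate regulators set the pace of phosphofructokinase and the level of 2,3-bisphosphoglycerate. Pfkfb3, the kinase form that makes the activator fructose 2,6-bisphosphate in proliferating cells, had the highest ratio of the group, with signals of 472 and 614 (log2 ratio 0.38, 1.30-fold higher). Its second probe set was below the floor on both arrays. Pfkfb2 had 133 and 124 (-0.10) and Pfkfb4 had 151 and 130 (-0.21). Pfkfb3 stood 0.48 above Pfkfb2 and 0.59 above Pfkfb4 in log2 ratio, more than the probe set SD of 0.31, on 1 measured probe set each. As the mean over all probe sets the distance to Pfkfb2 was within that SD, with Pfkfb2 minus Pfkfb3 at -0.20, and Pfkfb3 minus Pfkfb4 was 0.43. Bpgm, best known from red cells, had 738 and 654 (-0.17), 404 and 404 (-0.00) and 267 and 296 (0.14). Of 10 erythroid markers with a probe set, 5 were below the floor on both arrays, among them Alas2, Klf1 and Gata1. Those above it on at least 1 array were Hbb-b2 (215 and 160), Hba-a2 (81.6 and 83.4), Epor (79.9 and 61.3), Tfrc and Car2. The summed signals of the list were 7035 and 7103, mostly from Tfrc (4182 and 4435) and Car2 (2325 and 2241).

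**Figure D3:**
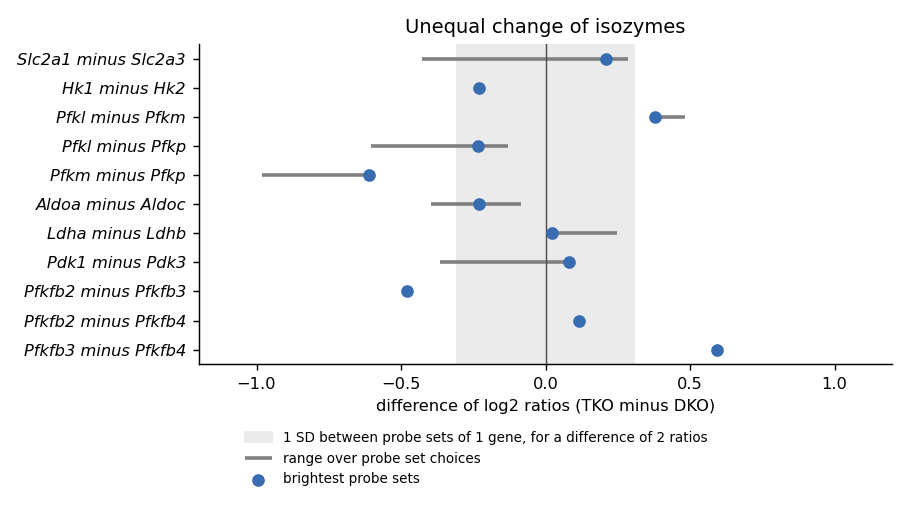
Difference between the log2 ratios (TKO minus DKO) of 2 isozymes for the 11 pairs with both measured (x axis), as points for the brightest probe sets and grey bars for the range over all choices of probe sets; the grey band is 1 SD between probe sets, 0.31. The Pfkm and Pfkfb3 pairs lie outside the band, from -0.61 to 0.59, and Ldha minus Ldhb lies at 0.02.

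Taking the isozymes by pairs, 16 pairs had been listed and 11 had both genes measured. Signals of different probe sets are not on one scale, so no isozyme was called more abundant than another, and the pairs were compared by their ratios. For 4 of the 11 the difference exceeded the probe set SD, and for 0 it reached 1 on the log2 scale. An excess over 1 SD is a low bar, since only 53.5% of all genes lay within the SD of 0.22 for 1 ratio. The share among pairs of other genes was not counted, so the 4 cannot be read as more than the background. Each of them includes Pfkm or Pfkfb3, so they are not independent. The 4 were Pfkl and Pfkp against Pfkm, and Pfkfb2 and Pfkfb4 against Pfkfb3, of which the pair of Pfkfb2 and Pfkfb3 did not exceed it as the mean over all probe sets. Differences for the glucose transporters (0.21 for Slc2a1 minus Slc2a3), the aldolases (-0.23 for Aldoa minus Aldoc) and the kinases (0.08 for Pdk1 minus Pdk3) were smaller on the brightest probe sets. Over all choices of probe sets they ranged from -0.43 to 0.29, from -0.40 to -0.08 and from -0.36 to 0.08, so each exceeded the probe set SD for some choice, and the first and the last changed sign. Pfkl minus Pfkp likewise ranged from -0.60 to -0.13. By presence above the floor, the arrays gave the same answer for every isozyme, since each was above it on both or below it on both.

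The X-linked genes Pgk1, Pdha1 and Pdk3 had log2 ratios of -0.29, -0.16 and -0.06, beside a median of -0.02 for 351 X-linked genes. The 23 measured genes of the group on other chromosomes had a median of -0.10 and ratios between -0.58 and 0.38, so that the median and both ends of the range did not rest on X-linked genes.

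Other genes of the pathway, from a list of 40, were measured for 22 of 36 with a probe set. Of these 2 were at least 2-fold higher, 1 at least 2-fold lower and 19 neither, with a median log2 ratio of 0.05. The 2 higher genes were transporters of the same family as Slc2a1, both near the floor on the DKO-titled array: Slc2a9, which carries urate, had 110 and 281 (1.35), and Slc2a8 had 103 and 225 (1.12). A second Slc2a9 probe set had 142 and 198 (0.48), and the mean over its probe sets was 0.92. The lower gene was the monocarboxylate carrier Slc16a7 (MCT2), with 146 and 62.1, the latter below the floor, at least 2.03-fold lower. With all ratios centred on 0 its log2 bound was -0.99, under the limit. Pdpr, a regulator of pyruvate dehydrogenase phosphatase, had 0.78 on its brightest probe set and -0.00 and -0.11 on others. The mitochondrial phosphoenolpyruvate carboxykinase Pck2 had 731 and 1203 (0.72) and 125 and 237 (0.92). Hk3, Pklr, Ldhc and Pdk4 were among 14 genes below the floor on both arrays by their brightest probe set.

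The neighbouring pathways held few genes past 2-fold. None of 15 pentose phosphate and hexosamine genes was (median -0.07), the largest ratios being those of Uap1 (1229 and 877, -0.49), Pgm3 (471 and 345, -0.45) and Gfpt1 (1487 and 1140, -0.38), which act in the hexosamine branch; other Uap1 and Gfpt1 probe sets reached 0.21 and 0.48. None of 20 tricarboxylic acid cycle genes was either (median -0.10), with Mdh1 (11914 and 16127, 0.44), Idh2 (2797 and 2125, -0.40) and Aco1 (2122 and 2758, 0.38) the farthest from 0. Their other probe sets above the floor on both arrays gave 0.21 and -0.08 for Mdh1, 0.68 for Idh2 and 0.20 for Aco1. Sdhd, a succinate dehydrogenase subunit, had 4888 and 4134 (-0.24) on its brightest probe set but 1198 and 3195 (1.42, 2.67-fold higher) on its second, of the _x_at type. Of the 19 proliferation genes 0 passed 2-fold and 18 were negative, with a median of -0.18, the farthest being Top2a (18243 and 13807, -0.40), Mcm6 (11514 and 8852, -0.38) and Aurka (-0.36). The part of proliferation in the ratios of the glycolytic genes was not tested.

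Among regulators, 1 of 27 measured genes on a joint list of hypoxia-response genes and glycolysis regulators was at least 2-fold higher. So was 1 of 19 mTORC1 and AMPK genes, and 0 of either list was lower. Hif1a, the inducible subunit of HIF-1, had 4668 and 4917 (log2 ratio 0.08), and Myc had 6953 and 5595 (-0.31). Bnip3, a mitophagy receptor and HIF-1 target, was 2.55-fold higher with 208 and 530 (1.35) on 1 probe set, and with the floor at the 75th percentile its log2 bound was 0.35. Epas1 had 320 and 515 (0.69), and Egln3, a prolyl hydroxylase and HIF-1 target, had 778 and 566 (-0.46). The joint list of hypoxia-response genes and glycolysis regulators had a median of -0.03, the same to 2 decimals as that of all genes. Mtor, the kinase of mTORC1, was 3.03-fold higher on its brightest probe set with 1146 and 3471 (1.60), but a second probe set had 134 and 100 (-0.42), and the mean over its probe sets was 0.45. Sesn1 had a log2 ratio of 0.87 and Sesn3 had 0.56, both inhibitors of mTORC1, and another Sesn1 probe set gave -0.18.

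**Figure D4:**
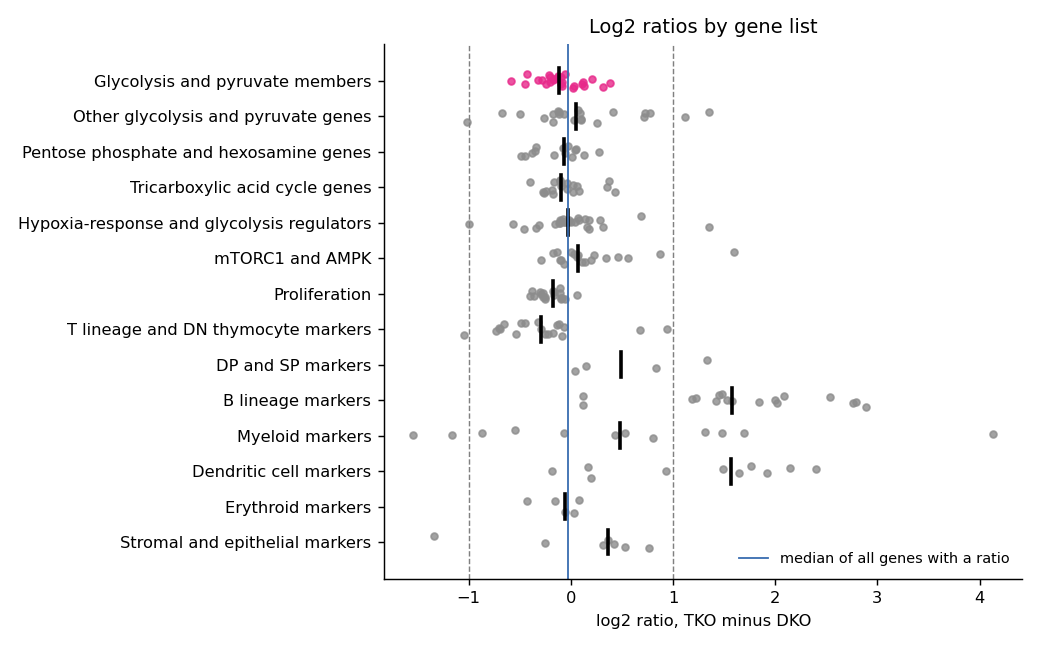
Log2 ratio (TKO minus DKO, x axis) of every gene with a ratio in the glycolysis and pyruvate group (pink) and in 13 other lists (grey), with list medians as black bars, the median of all genes as a blue line and 2-fold as dashed lines. The pink points lie between -0.58 and 0.38 around -0.11, whereas the medians of the B lineage and dendritic cell markers lie at 1.58 and 1.57.

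Other cell type markers gave further values beside which these ratios stand. Of 10 measured dendritic cell markers 6 were at least 2-fold higher and 0 lower (median 1.57, summed signals of 11582 and 34605), led by Cd74 (2.40), H2-Eb1 (2.14) and H2-Aa (1.92), while Flt3, Siglech and Xcr1 lay under the floors. The others past 2-fold were H2-Ab1, Ly86 and Ciita. The 4 that did not pass it were Zbtb46 (0.94) and Batf3 (0.20), both below the floor on the DKO-titled array, Itgax (0.16) and Bst2 (-0.18). Whether the signal of the 6 higher genes came from dendritic cells or from B lineage cells was not tested. Of 12 myeloid markers 4 were higher, namely Chil3 (4.14), Csf1r (1.69), Ctss (1810 and 5063) and Lyz2 (1.32), and 2 were lower, Ngp (-1.54) and S100a9 (-1.16), with summed signals of 6365 and 12452. Of 7 stromal and epithelial markers 0 were higher and 1 was lower, Pdgfrb (3605 and 1423, -1.34), and Ccr7 (1.33) was the 1 higher gene of 4 double-positive and single-positive stage markers. Of the T lineage and DN markers Il2ra was lower by more than 2-fold (6536 and 3162, -1.05). The 2 with positive ratios were Cd44 (1061 and 2030, 0.94) and Cd2 (1158 and 1846, 0.67). Other Cd44 probe sets above the floor had 838 and 1679, just past 2-fold, and 98.6 and 150 (0.61). The next lowest ratio after that of Il2ra was that of Cd3d (13004 and 7822, -0.73). The higher B lineage markers were led by Bank1 (2.89), Fcrla (2.79) and Ms4a1 (2.77). The genes of glycolysis and pyruvate metabolism spanned -0.58 to 0.38, beside -0.40 to 0.06 for the proliferation genes, -0.49 to 0.28 for the pentose phosphate and hexosamine genes and -0.40 to 0.44 for the tricarboxylic acid cycle genes.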

How the data were processed

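The 2 arrays were grouped by their titles. The authors deposited linear intensity values, 1 for each probe set; the submitters' processing notes name MAS5 and no version. MAS5 scales each array as a whole: the mean of the deposited signals without 2% at each end was 497 on both arrays. Per the labels' protocols, 6 ug of RNA went into the labelling. Of 45037 probe sets, 34945 had 1 gene symbol, 932 had several and 9160 were not listed in the platform annotation; 99.4% of the first were matched by Entrez ID to RefSeq (GRCm38.p6). A gene was read from its brightest probe set, by the mean log2 signal of both arrays. Signals below the floor were raised to it, so a ratio with 1 array below it is a bound. Detection calls were not used here, and the number of arrays limits the precision.

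Named genes were all group members, the targeted and sex-linked genes, and in each other list the genes past 2-fold (some B lineage markers only counted) and up to 3 largest ratios; other names were chosen after their values were seen. Members and lists were chosen with earlier results of these data known. The scripts (Python 3.11.15, numpy 2.4.6, pandas 2.3.3, statsmodels 0.14.6, matplotlib 3.10.9) were tested on simulated data.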

Additional observations from a re-analysis of the deposited data

How the results depend on the processing

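No paired analysis was possible because each label has 1 array, and for the same reason no replicate could be left out. Under 9 alternatives (3 scalings, 2 floors, 2 choices of probe sets, leaving out the X and Y chromosomes, and, added after seeing the data, the mean over probe sets above the floor on both arrays) the median of the glycolysis and pyruvate genes stayed between -0.13 and -0.06. Keeping Affymetrix control probe sets was not run, as the table used here has 0 of them. Of 26 genes 21 kept their sign throughout (14 negative, 7 positive); Slc16a1, Pfkl, Pdhb, Pdk1 and Pfkfb2 did not. Over all genes, 962 were 2-fold higher and 434 lower with the floor at the 25th percentile (1 of the group higher), 147 and 14 at the 75th; 35 were lower with either mean over probe sets; and 977 and 369 passed 1.5-fold. Pdk1 minus Pdk3 was -0.30 as the mean over all probe sets and -0.20 over those above the floor on both arrays, and Pfkfb2 minus Pfkfb3 was -0.20 as the mean over all; such means include probe sets under the floor, or disagreeing ones. The causes were not tested. Ratios of genes near the floor are limited by background.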

Other observations

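Some genes of the pathway gave opposite answers on different probe sets, and a reader following them up would want the probe sequences. For Mtor the brightest probe set had a DKO signal of 1146 and a TKO signal of 3471, and the second had 134 and 100. For Idh2, mitochondrial isocitrate dehydrogenase, the brightest probe set gave a log2 ratio of -0.40 and another 0.68. For Pdk1 the brightest probe set gave 0.02 and the others above the floor -0.38 and -0.42. Car9, a carbonic anhydrase and HIF-1 target, had signals of 143 and 62.4, at least 1.99-fold lower, which lay just inside the 2-fold limit and passed it after quantile normalization (-1.05) and lowess (-1.03). No explanation of these values was tested.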
